A study of Mus musculus with 24 samples.

Results

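The 9 genes described here encode cell-surface proteins that join neurons at synapses or organise the surface of their axons: the neurexins Nrxn2 and Nrxn3, the neuroligins Nlgn1, Nlgn2 and Nlgn3, the leucine-rich repeat protein Lrrtm2, and the contactin-associated genes Cntnap1, Cntnap2 and Cntnap4. They were taken by gene symbol from a table of 21553 genes with counts, and all 9 were found. RNA was sequenced from mouse wild-type (WT) cells and from slow/slow cells at 4 stages of an in vitro neural differentiation, with 3 libraries in each of the 8 groups and 24 libraries in all. Both genotypes derive from the E14 embryonic stem cell (ESC) line. The slow/slow cells carry the R749H substitution on both alleles of Polr2a, the gene for the largest subunit of RNA polymerase II, introduced by sequential gene targeting with removal of the neomycin cassette by Flp recombinase. This substitution lowers the elongation rate of the polymerase, and the comparison asks what slower elongation does to gene expression and splicing as ESCs become neurons.

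The stages were ESCs grown with the inhibitors of 2i medium and LIF, neural progenitor cells (NPCs) at day 7 of culture in N2B27 medium, cells purified with beads for the surface antigen PSA-NCAM after 10 days (PSA-NCAM+ cells), and neurons replated at day 7 and kept for a further 14 days with ascorbic acid and cAMP. WT cells were plated for differentiation at 10000 per cm2 and slow/slow cells at 30000 per cm2, so genotype and plating density cannot be told apart at the differentiated stages. The 3 libraries of a group come from independent differentiation experiments, and each genotype is represented by cells of 1 targeted or parental line.

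Neurexins sit in the presynaptic membrane and bind partners across the synaptic cleft. Neuroligins and LRRTM2 are such partners in the postsynaptic membrane: neuroligin-1 is found mainly at excitatory synapses, neuroligin-2 at inhibitory synapses and neuroligin-3 at both. Neurexin transcripts are made from alternative promoters and are heavily spliced, and inclusion of the exon at splice site 4 (SS4) changes which partners bind, since LRRTM proteins bind neurexins that lack its peptide and cerebellins bind those that hold it. Contactin-associated proteins are neurexin-like membrane proteins that pair with contactins on axons. CNTNAP1 forms the paranodal junction with myelin, CNTNAP2 clusters potassium channels beside it, and CNTNAP4 is a presynaptic protein of interneurons.

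Library totals ranged from 32974432 to 104466886 counts, and 16627 genes passed the expression filter, among them all 9 members. Markers separated ESCs from neurons but not every stage. The summed level of 3 pluripotency markers was 3485 to 3969 counts per 1000000 (CPM) in ESC libraries and 50.7 to 111 CPM in neurons, whereas 5 neuronal markers summed to 45.4 to 151 CPM in ESCs and 1276 to 1605 CPM in neurons. Pluripotency markers still summed to 1000 to 1378 CPM in NPCs and 364 to 1060 CPM in PSA-NCAM+ cells. The 4 markers of neural progenitors and radial glia were lower in cells labelled NPC (47.5 to 49.9 CPM in WT and 143 to 184 CPM in slow/slow) than in neurons (1009 to 1217 CPM). PSA-NCAM+ libraries differed among themselves with their replicate number, and deviations from the group mean correlated between the same-numbered WT and slow/slow libraries (r = 0.35 to 0.50 across genes). Results at that stage are therefore given also without both libraries numbered 1. Markers of haematopoietic cells and microglia were near 0, at 0.49 CPM or less in sum in every library.

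All levels below are in CPM scaled by the trimmed mean of M values, and a change was called when the false discovery rate (FDR) of edgeR's quasi-likelihood test over all tested genes was under 0.05. Every member was higher in neurons than at the earlier stages. Nrxn2 (chr19:6418731-6544169 of GRCm38, plus strand) measured 16.7, 15.1 and 19.6 CPM in WT ESCs, 16.5, 16.5 and 17.1 CPM in WT NPCs and 6.94, 12.5 and 15.1 CPM in WT PSA-NCAM+ cells, against 429, 401 and 394 CPM in WT neurons. All 3 neuron libraries were thus far above the 9 earlier WT libraries. From WT NPCs to neurons Nrxn2 rose 24.4-fold (log2 change 4.61, SE 0.29, FDR 8.5e-12). In slow/slow cells Nrxn2 rose 8.93-fold (log2 3.16, FDR 2.2e-09), from 14.9, 17.2 and 18.4 CPM in NPCs to 141, 154 and 155 CPM in neurons.

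The other members already measurable in progenitors rose as well. Nlgn3 (chrX:101299168-101325963, plus strand) went from 1.68, 1.93 and 1.53 CPM in WT NPCs to 40.4, 39.9 and 37.9 CPM in WT neurons, a 22.9-fold rise (FDR 5.7e-14). Cntnap2 (chr6:45059357-47304213, plus strand) went from 2.97, 2.85 and 3.15 CPM to 59.3, 59.1 and 56.4 CPM, which was 19.5-fold (FDR 9.1e-14). Nlgn2 (chr11:69823122-69837784, minus strand) was the member with the highest level before neurons and rose less, 4.79-fold from 67.4, 71.7 and 64.3 CPM to 342, 312 and 320 CPM (FDR 7e-12). Cntnap1 (chr11:101170523-101190724, plus strand) rose 4.44-fold, from 1.39, 1.6 and 1.15 CPM to 6.48, 5.78 and 6.19 CPM (FDR 5.6e-10). The neuron libraries did not overlap the NPC libraries for any of these 5 genes in either genotype. The calls of a rise among these 5 were 5 in WT and 5 in slow/slow, where 41.4 percent and 38.4 percent of all tested genes were called higher in the same comparisons. In slow/slow cells the rises were 11-fold for Nlgn3, 4.74-fold for Cntnap2, 6.99-fold for Nlgn2 and 2.43-fold for Cntnap1.

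Nrxn3, Nlgn1, Cntnap4 and Lrrtm2 stayed under 1 CPM in all 18 libraries before neurons and passed the filter through neurons, so their rise is given as a description. Nrxn3 (chr12:88722876-90334935, plus strand) had 0 counts in the 6 ESC libraries, and 3 counts in the WT NPC libraries against 17.4, 17.3 and 15.8 CPM in WT neurons. The ratio of summed counts was 1003 with a counting interval of 343 to 4867. Nlgn1 (chr3:25426215-26332460, minus strand) reached 11.5, 11.8 and 10.4 CPM in WT neurons, against 0.0416, 0.0604 and 0.03 CPM in WT NPCs. Cntnap4 (chr8:112570043-112882717, plus strand) reached 7.14, 7.24 and 6.46 CPM from 0.104, 0.136 and 0.045 CPM. Lrrtm2, a short gene within the bounds of the opposite-strand gene Ctnna1, reached 13.2, 12.6 and 12.8 CPM from 0.125, 0.151 and 0.09 CPM. Expression of these 4 genes was therefore read almost wholly from the neuron libraries. The plot of members' levels by stage shows the rise in both genotypes. It also shows slow/slow neurons below WT neurons for Nrxn2 and Cntnap2. For Cntnap2 the genotypes were already apart before neurons, with slow/slow lower in ESCs and higher in NPCs and PSA-NCAM+ cells.

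**Figure D1:**
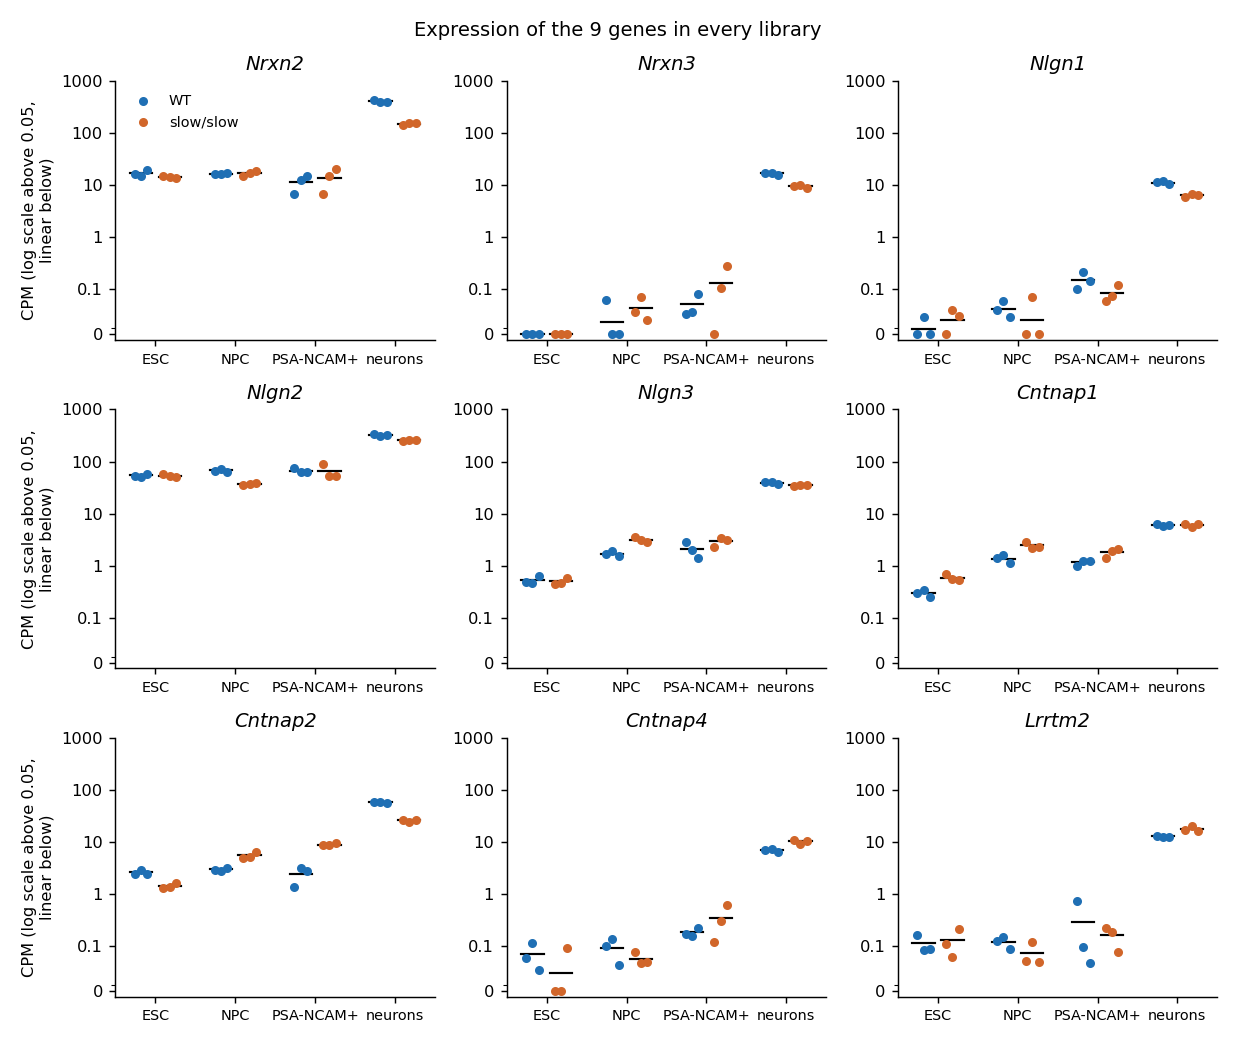
Level of each of the 9 members in CPM (vertical axis, logarithmic above 0.05 and linear below) at the 4 stages, with a point for each library, a bar for the mean of 3 libraries and colour for genotype. Neuron libraries stand above the earlier stages in every panel, and the slow/slow neuron libraries lie below WT for Nrxn2 (141 to 155 against 394 to 429 CPM) and Cntnap2 (24.7 to 27.1 against 56.4 to 59.3 CPM).

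Divided by exonic length, the order of levels in WT neurons was led by Nlgn2 at 56.1 ± 2.66 CPM per kilobase (SD, n = 3). Nrxn2 followed at 29.5 ± 1.33, Cntnap2 at 5.69 ± 0.156, Nlgn3 at 4.25 ± 0.143, Lrrtm2 at 2.14 ± 0.0566 and Nrxn3 at 1.33 ± 0.0726 CPM per kilobase. Cntnap4 at 1.11 ± 0.0675 and Cntnap1 at 1.05 ± 0.0598 CPM per kilobase overlapped, and Nlgn1 was lowest at 0.836 ± 0.057. In slow/slow neurons Nlgn2 (44.4 ± 1.59) and Nrxn2 (10.8 ± 0.58) still led, but Cntnap2 at 2.57 ± 0.138 CPM per kilobase lay below Nlgn3 at 3.79 ± 0.039 and Lrrtm2 at 3.03 ± 0.374. Nrxn3 (0.767 ± 0.0519) and Nlgn1 (0.481 ± 0.0331) were the lowest there. The authors' mean RPKM of each group, also scaled by length, gave another order among the lower members. In WT neurons it put Nlgn1 (2.6) above Lrrtm2 (2.29) and Cntnap4 (1.45), with Cntnap1 (1.14) lowest. In slow/slow neurons it put Cntnap2 (4.16) above Lrrtm2 (3.56). Cntnap1 (1.23) was lowest there, below Nlgn1 (1.64) and Nrxn3 (2.31). In the CPM per kilobase values, reads of a gene expressed largely as a short transcript are spread over the whole annotated exon length. Such a gene's level per kilobase is understated.

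In neurons, slow/slow cells held less of Nrxn2, Nlgn1, Nlgn2 and Cntnap2 RNA than WT cells, and the other 5 members were not called. These 4 calls of 9 compare with 51.9 percent of all tested genes called in either direction, 28.4 percent lower and 23.4 percent higher. Of all called genes 45.2 percent were higher, and 59.2 percent with upper-quartile scaling, under which 2 members, Nrxn2 and Cntnap2, were called. In RNA from whole cultures, fewer neurons and less RNA per neuron cannot be told apart. On the presynaptic side, Nrxn2 measured 429, 401 and 394 CPM in WT and 141, 154 and 155 CPM in slow/slow neurons. Every slow/slow library was below every WT library, and the means of 408 ± 18.4 and 150 ± 8.01 CPM (SD, n = 3) differed 2.72-fold (log2 change -1.45, SE 0.25, FDR 8.6e-05). Nrxn3 measured 17.4, 17.3 and 15.8 CPM in WT and 9.87, 10.2 and 8.93 CPM in slow/slow neurons. Its groups did not overlap either, but the 1.74-fold lower level was not called (log2 -0.80, SE 0.39, FDR 0.099). A fit of the 6 neuron libraries alone called Nrxn3 (FDR 6.3e-06), as did DESeq2.

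On the postsynaptic side, Nlgn1 measured 11.5, 11.8 and 10.4 CPM in WT and 5.96, 6.8 and 6.63 CPM in slow/slow neurons. That 1.74-fold fall passed the test (log2 -0.80, SE 0.29, FDR 0.029). Nlgn2 measured 342, 312 and 320 CPM in WT and 247, 259 and 265 CPM in slow/slow neurons, a 1.26-fold fall (log2 -0.34, SE 0.13, FDR 0.043). Both calls were near the threshold: leaving out 1 of the 6 neuron libraries in turn kept the call of Nlgn1 in 1 of 6 fits (FDR 0.064 to 0.093 in the others) and that of Nlgn2 in 0 of 6 (FDR 0.064 to 0.12), whereas Nrxn2 and Cntnap2 were called in 6 of 6. Nlgn3 differed less, with 40.4, 39.9 and 37.9 CPM in WT and 34.7, 35.3 and 35.4 CPM in slow/slow neurons (log2 -0.17, SE 0.18, FDR 0.45). Lrrtm2 lay the other way, with 13.2, 12.6 and 12.8 CPM in WT and 17.5, 20.8 and 16.5 CPM in slow/slow neurons (log2 0.50, SE 0.42, FDR 0.33). Its groups did not overlap, and the difference did not pass the test. Counts that cannot be assigned to a strand from the sources used here could be shared between Lrrtm2 and Ctnna1 over 95 bases of exon, and between Nlgn1 and the antisense gene A830092H15Rik over 1229 bases. Nrxn2 shares 682 bases of exon with Slc22a12 on the opposite strand, and Nlgn3 shares 3823 bases with Gm21986 on its own strand.

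On the axonal side, the 3 contactin-associated genes differed from each other. Cntnap2 measured 59.3, 59.1 and 56.4 CPM in WT and 27.1, 24.7 and 27.1 CPM in slow/slow neurons, a 2.22-fold fall with no overlap (log2 -1.15, SE 0.18, FDR 2.1e-05). Cntnap1 was near equal, with 6.48, 5.78 and 6.19 CPM in WT and 6.26, 5.46 and 6.33 CPM in slow/slow neurons (log2 -0.03, SE 0.17, FDR 0.89). Cntnap4 was higher in each slow/slow library, at 11, 9.27 and 10.7 CPM against 7.14, 7.24 and 6.46 CPM, without passing the test (log2 0.58, SE 0.34, FDR 0.16). Cntnap4 lies on chromosome 8, where the median log2 difference of 865 tested genes was 0.44 in neurons and 0.45 to 0.49 at the 3 earlier stages. The part of that chromosome-wide difference in the Cntnap4 values was not tested. Counting groups that did not overlap, 6 members were lower and 2 higher in slow/slow neurons, where 42.0 percent and 33.5 percent of all tested genes were.

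Markers of other cell types also differed between the neuron cultures, and their part in these results was not tested. Of 5 neuronal markers, 4 were lower in slow/slow neurons (Syn1 -1.87, Snap25 -1.79, Syt1 -1.56 and Rbfox3 -0.89 on the log2 scale) and Tubb3 was at 0.36 (FDR 0.35). Their summed level was 1497 to 1605 CPM in WT and 1276 to 1456 CPM in slow/slow neurons. All 4 mesenchymal markers were higher in slow/slow neurons, with a sum of 549 to 585 CPM against 211 to 266 CPM, and so were the 4 endodermal markers, at 23.0 to 37.8 CPM against 10.5 to 11.3 CPM. Astrocyte markers summed to 9.64 to 12.2 CPM in slow/slow and 30.8 to 39.4 CPM in WT neurons. Of 3 tested, Gfap (-3.5) and Aldh1l1 (-2.13) were lower and Aqp4 was higher (1.19, edgeR FDR 0.035) on the log2 scale. Other lists also held genes that moved in opposite directions. Progenitor markers summed to 1073 to 1217 CPM in slow/slow and 1009 to 1209 CPM in WT, with Pax6 at 2.72 and Slc1a3 at -0.88 on the log2 scale. Markers of the oligodendrocyte lineage summed to 52.7 to 77.6 and 73.5 to 95.2 CPM, with Olig1 at -7.36, Olig2 at -4.69, Sox10 at 2.92 and Pdgfra at 2.07.

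The members span very different lengths of DNA, and the difference between genotypes in neurons varied with gene span across all tested genes. The median log2 difference was -0.01 for 11736 genes under 50 kb, -0.14 for 3644 genes of 50 to 200 kb, -0.37 for 723 genes of 200 to 500 kb and -0.80 for 209 genes above 500 kb. In these classes 24.9, 35.6, 47.7 and 53.6 percent of genes were called lower. Nrxn3 (1612.1 kb) and Nlgn1 (906.2 kb) were both at -0.80, the median of their class, and Cntnap2 (2244.9 kb) at -1.15 was below it. Nrxn2 did not follow its class: it spans 125.4 kb and was at -1.45, against a class median of -0.14. Cntnap4 spans 312.7 kb and was at 0.58, against -0.37 for its class. The members under 50 kb were Nlgn2 at 14.7 kb, Nlgn3 at 26.8 kb, Cntnap1 at 20.2 kb and Lrrtm2 at 6.0 kb, with log2 differences from -0.34 to 0.50.

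**Figure D2:**
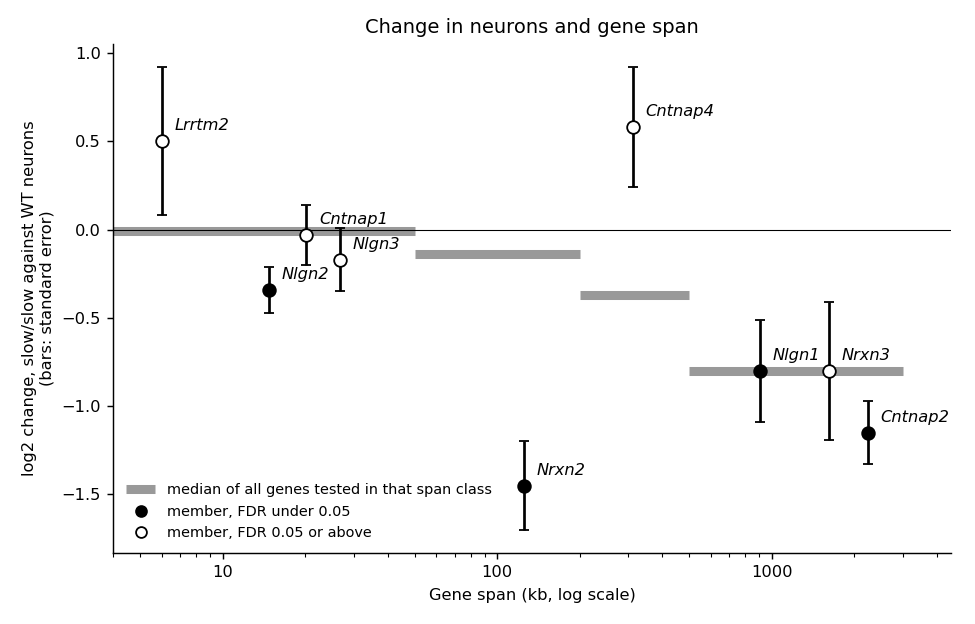
Log2 difference of slow/slow against WT neurons (vertical axis, with its SE) against gene span in kilobases (logarithmic horizontal axis) for the 9 members, filled where the FDR was under 0.05, with grey bars for the median of all tested genes in each span class. Nrxn2 at 125.4 kb lies below its class median of -0.14, and Cntnap4 at 312.7 kb lies above its class median of -0.37.

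The splicing table also counts the reads that join neighbouring exons, which show where along a gene the genotypes differed. In the 6 neuron libraries 115235 junctions were tested with edgeR, of which 53.9 percent were called, 26.7 percent lower and 27.2 percent higher in slow/slow. Cntnap2 has 2 annotated starts of this kind in GRCm38: a long transcript from the beginning of the gene and short transcripts that begin 97.3 percent of the way along it and share its last 2 junctions. The 250 bases before each RefSeq start are shown because the data split between them, with each CG in capitals. They lie at chr6:45059811-45060060 for the long start and chr6:47244146-47244395 for the internal start (GRCm38.p6, plus strand). The RefSeq starts differ from those used for the junctions, where the gene begins at 45059357 and the short transcripts at 47244387 and 47244453.
Cntnap2 long start: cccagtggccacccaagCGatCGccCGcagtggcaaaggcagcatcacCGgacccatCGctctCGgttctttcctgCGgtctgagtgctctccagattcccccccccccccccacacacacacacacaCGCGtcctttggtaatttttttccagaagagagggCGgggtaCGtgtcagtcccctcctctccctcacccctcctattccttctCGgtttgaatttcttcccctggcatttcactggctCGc
Cntnap2 internal start: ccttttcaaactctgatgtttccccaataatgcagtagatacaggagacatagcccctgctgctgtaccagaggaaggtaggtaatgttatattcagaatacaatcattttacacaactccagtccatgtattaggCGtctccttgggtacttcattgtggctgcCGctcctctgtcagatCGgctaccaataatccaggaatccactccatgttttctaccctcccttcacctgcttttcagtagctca
The long start held 13 CG dinucleotides and the internal start 3. Of 32851 promoters of this length in the table, 31.5 percent held at least 13 and 71.0 percent at least 3, with a median of 6.

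All 21 Cntnap2 junctions before the internal start were lower in slow/slow neurons, by log2 -2.05 to -3.31 with a median of -2.58. Their mean was 2.18, 2.13 and 2.05 junction reads per 1000000 (RPM) in WT and 0.353, 0.339 and 0.324 RPM in slow/slow neurons, a 6.25-fold difference. The 2 junctions shared with the short transcripts held 9.19, 8.82 and 8.51 RPM in WT and 6.79, 5.96 and 7.75 in slow/slow neurons, only 1.29-fold apart, at log2 -0.23 (edgeR FDR 0.13) and -0.42 (edgeR FDR 0.0015). The mean read number of the junctions before the internal start was 23.9 ± 0.208 percent of that of the shared junctions in WT and 5.02 ± 0.77 percent in slow/slow neurons (SD, n = 3). The groups did not overlap (exact permutation test, two-sided, p = 0.1, the smallest that 3 against 3 allows). The fall of the whole-gene Cntnap2 count in neurons thus averaged a large fall along most of the gene and a small difference at its end. Before neurons, the same percentage, a ratio of mean reads per junction, was 0 to 3.17 in the 18 libraries. Summed over the 21 junctions, 19 of 146 Cntnap2 junction reads in WT NPCs and 6 of 216 in slow/slow NPCs lay before the internal start. The numbers in PSA-NCAM+ cells were 17 of 120 in WT and 19 of 457 in slow/slow.

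Nrxn2 and Nrxn3 each have annotated short transcripts that correspond to the beta forms of neurexins, beginning 63.1 and 67.6 percent of the way along the gene. In Nrxn2 all 15 junctions before the internal start were lower in slow/slow neurons (log2 -1.29 to -2.0, median -1.78), with means of 14.9, 14.3 and 13.2 RPM in WT against 3.78, 4.17 and 3.96 in slow/slow. The 4 shared junctions were lower as well, with 37.1, 37.4 and 36.4 against 17.9, 19.4 and 17.8 RPM. The fall was 3.57-fold before the internal start and 2.01-fold after it. Of the 4 shared junctions, those at -0.43 and -0.56 flank the SS4 exon and count only molecules that hold it. The other pair was at -1.22 and -1.18. Both the 2.01-fold value and the next percentage average all 4, so they also shift with SS4 inclusion, which was higher in slow/slow neurons. The part of SS4 inclusion in them was not tested. The percentage before the internal start went from 40.3, 38.3 and 36.4 in WT to 21.1, 21.5 and 22.3 in slow/slow neurons, without overlap (exact permutation test, p = 0.1), and was 3.33 to 11.9 at the earlier stages.

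Nrxn3 showed the opposite order. Of its 15 junctions before the internal start 9 had enough reads to test and 0 were called by edgeR. Means over the 15 were 0.556, 0.54 and 0.516 RPM in WT and 0.438, 0.466 and 0.372 in slow/slow neurons. Introns 3 and 4 had 0 reads in every neuron library and introns 14 and 15 had 0 to 4. Their inclusion lowers these means and the percentage below in both genotypes. All 4 shared junctions were lower (log2 -0.67 to -0.96), with 2.23, 1.94 and 1.92 RPM in WT and 1.18, 1.19 and 0.916 in slow/slow neurons. The percentage before the internal start was 25.0, 27.8 and 26.9 in WT and 37.2, 39.2 and 40.6 in slow/slow neurons, again without overlap (exact permutation test, p = 0.1). Averaging log2 differences over the earlier and the later introns of a gene gave an earlier-minus-later value of -0.42 for Cntnap2, -0.30 for Nrxn2 and 0.43 for Nrxn3. Over 5717 genes with enough introns this value had a median of 0.02, a 5th percentile of -0.20 and a 95th percentile of 0.23, so these 3 members lay outside that range, while Cntnap1 (0.12) and Cntnap4 (-0.07) lay within it.

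**Figure D3:**
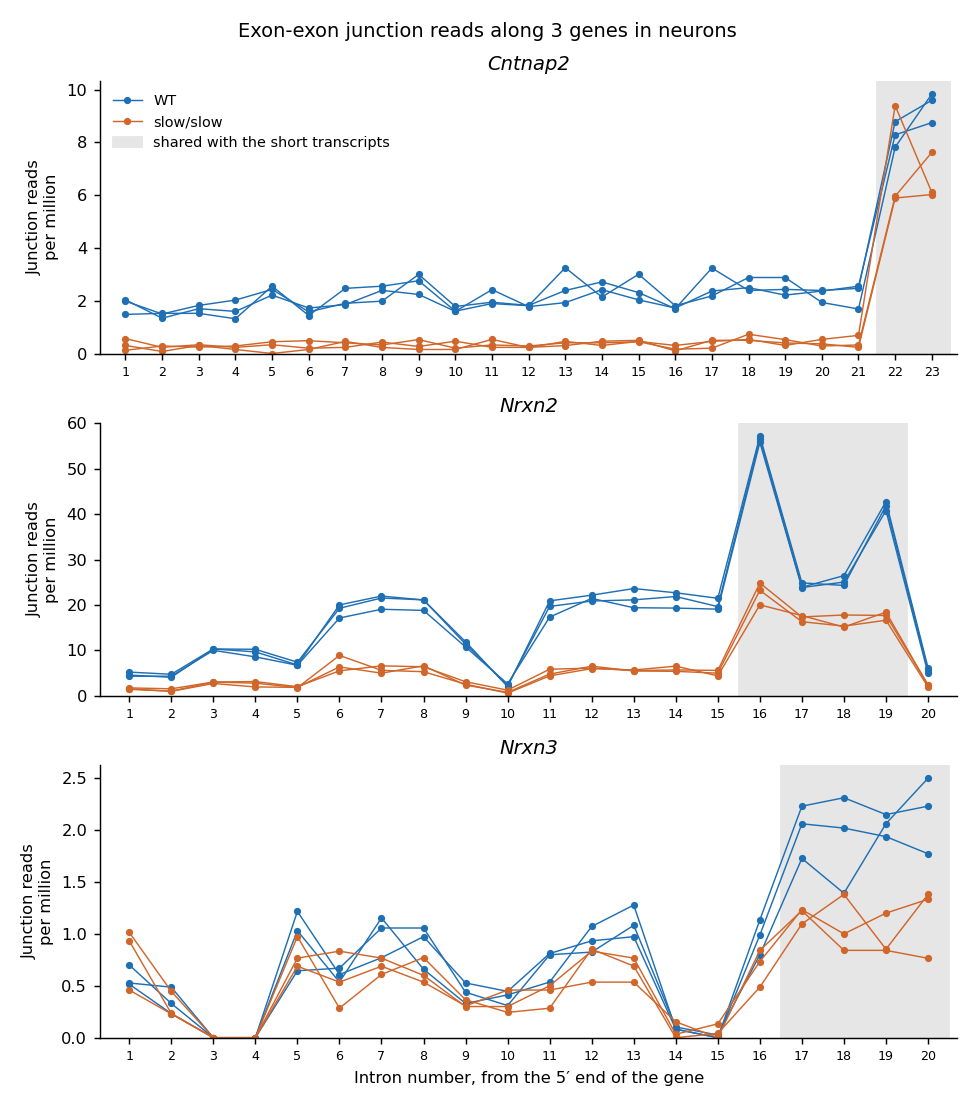
Reads that join neighbouring exons, in RPM (vertical axis), by intron number from the start of the gene (horizontal axis) for Cntnap2, Nrxn2 and Nrxn3 in the 6 neuron libraries, coloured by genotype, with the introns shared with short transcripts on grey. In Cntnap2 the genotypes are apart over the 21 introns before the grey area and close in the last 2, and in Nrxn3 they are apart mainly within it.

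**Figure D4:**
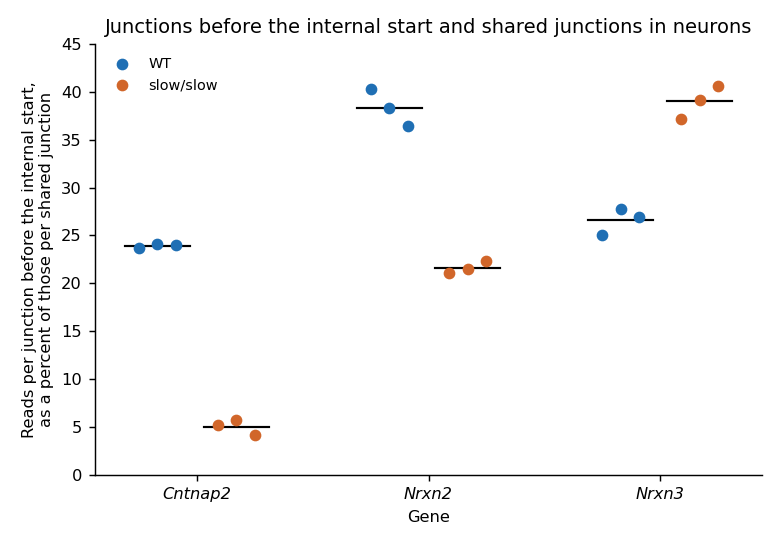
Mean reads of junctions before the internal start as a percentage of the mean at the shared junctions (vertical axis) in Cntnap2, Nrxn2 and Nrxn3, with a point for each neuron library and a bar for the mean of 3. The percentage is lower in slow/slow than in WT neurons for Cntnap2 (5.02 against 23.9) and Nrxn2 (21.6 against 38.3) and higher for Nrxn3 (39.0 against 26.6). The Nrxn2 values also shift with inclusion of the SS4 exon, and the Nrxn3 means include junctions with few or no reads.

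The remaining members have no internal start of this kind in the annotation used. All 6 Nlgn2 junctions were lower in slow/slow neurons by small amounts (log2 -0.18 to -0.34). In Nlgn1, 2 of 4 tested junctions were lower, both at the end of the gene (log2 -1.12 and -1.74). Nlgn3 had 1 of 6 lower (log2 -0.42), and Cntnap1 had 0 of 13 tested junctions called by edgeR. Cntnap4 had 10 of 23 junctions called higher, with a median of 0.77 over the 23, and the only Lrrtm2 junction was higher (log2 0.68, edgeR FDR 0.0089). The junction test used the 6 neuron libraries alone, and whole-gene counts fitted on those 6 libraries also called Cntnap4 (FDR 0.00012) and Lrrtm2 (FDR 6.8e-05).

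The splicing table held 37 exon events of the members, of which 2 were microexons, and gives for each library the percentage of transcripts that include the exon (percent spliced in, PSI). An exon was called when mean PSI differed by more than 10 points and the posterior probability of its direction exceeded 0.95. In neurons 11 exons had enough balanced reads in all 6 libraries and 2 were called, both in Nrxn2, where 3.55 percent of all tested exons were called. The first is the SS4 exon of 90 nucleotides, which is 30 codons long and keeps the reading frame.

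The Nrxn2 SS4 exon was included in 45.3, 46.8 and 46.5 percent of transcripts in WT neurons and in 77.5, 77.7 and 79.8 percent in slow/slow neurons, from at least 498 reads in each library. The groups did not overlap, and the means of 46.2 ± 0.779 and 78.3 ± 1.25 percent (SD, n = 3) differed by 32.1 points (posterior 1.0, limma FDR 0.00066). In WT cells inclusion fell by 30.7 points from NPCs to neurons, the only exon of the members called among 5 tested in that comparison, where 6.48 percent of all tested exons were called. In slow/slow cells it changed by -9.1 points, which was not called, and 0 of 5 tested exons were called against a background of 3.72 percent. At earlier stages slow/slow cells were also higher without passing the test: 85.8, 90.5 and 86.1 against 78.4, 81.8 and 70.4 percent in NPCs (10.6 points, posterior 0.909), and 79.0, 80.7 and 87.1 against 66.7, 75.4 and 70.8 percent in PSA-NCAM+ cells (11.3 points, posterior 0.891). In ESCs the exon was at 97.6, 80.5 and 97.7 percent in WT and at 100 percent in the 3 slow/slow libraries, from as few as 27 reads, and was not tested.

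**Figure D5:**
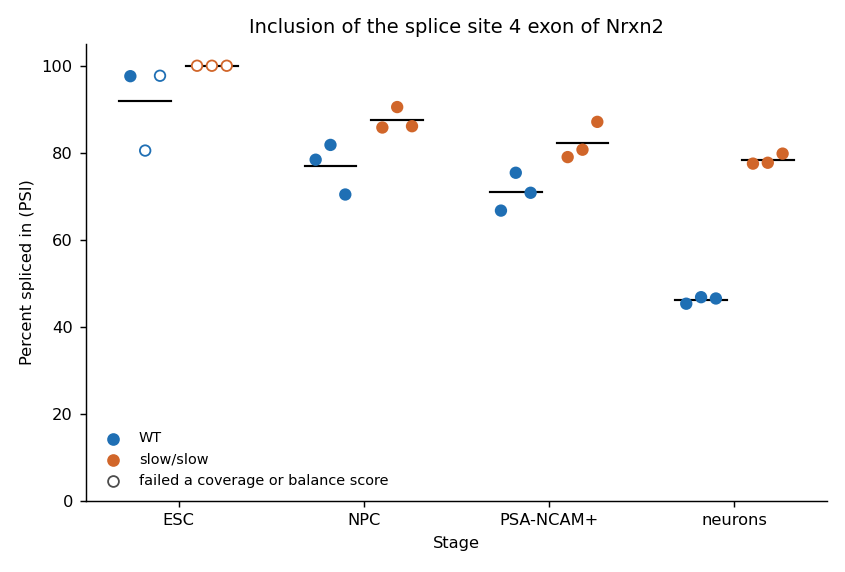
Inclusion of the Nrxn2 SS4 exon in percent (vertical axis) at the 4 stages, with a point for each library, open where its reads failed the coverage or balance score, a bar for the mean of 3 libraries and colour for genotype. WT inclusion is lowest in neurons (45.3 to 46.8 percent), where slow/slow libraries lie at 77.5 to 79.8 percent.

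The corresponding SS4 exon of Nrxn3 was at 98.2, 98.0 and 94.4 percent in WT and 93.2, 97.2 and 100 percent in slow/slow neurons, from as few as 22 reads, too few to test. Among the RNA-binding proteins known to act on this exon, Khdrbs2 (SLM1) was lower in slow/slow neurons, at 5.94, 5.69 and 5.04 CPM against 13.8, 13.1 and 12.5 CPM (log2 -1.24, edgeR FDR 0.0021). Khdrbs3 (SLM2) was lower by a little, at 88.9, 91.8 and 93.4 CPM against 110, 105 and 104 CPM (log2 -0.22, edgeR FDR 0.036). Khdrbs1 (Sam68) measured 383, 391 and 392 CPM against 322, 325 and 323 CPM (log2 0.27, edgeR FDR 0.081). The part of these proteins in exon choice was not tested.

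The other Nrxn2 exon called in neurons has 69 nucleotides and lies at chr19:6450531-6450599, in the extracellular part ahead of the internal start, so only long transcripts hold it. It is shown because its inclusion moved against that of SS4.
Nrxn2 69-nucleotide exon: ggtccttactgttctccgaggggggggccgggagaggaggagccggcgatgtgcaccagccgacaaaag
It was included at 72.1, 79.0 and 74.0 percent in WT and 58.2, 67.5 and 58.9 percent in slow/slow neurons. The means of 75.0 ± 3.56 and 61.5 ± 5.18 percent did not overlap by library and differed by -13.5 points (posterior 0.970), and limma on the same reads gave an FDR of 0.082. Without the slow/slow library numbered 1 the difference was -11.9 points and was not called. Other tested exons of the members moved less: the 51-nucleotide exon at splice site A of Nlgn2 was at 88.0, 91.2 and 87.9 percent in WT and 90.1, 92.2 and 87.9 percent in slow/slow neurons. The second 60-nucleotide exon at splice site A of Nlgn3 was at 50.9, 57.6 and 58.7 percent against 62.9, 58.0 and 68.8 percent (7.5 points, posterior 0.781). The 12-nucleotide microexon of Nrxn3 was at 13.3, 22.2 and 19.1 percent in WT and 0 percent in each slow/slow library, but these values rest on 6 to 24 reads and were not tested. At the earlier stages 0 member exons were called, of 3 tested in ESCs (0.809 percent of all tested exons called), 5 in NPCs (2.93 percent) and 4 in PSA-NCAM+ cells (0.966 percent).

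Cntnap1 and Cntnap2 differed between genotypes at each stage before neurons, and neuroligins did in NPCs and PSA-NCAM+ cells. In ESCs 2 members were called, where 40.4 percent of all tested genes were. Cntnap1 was higher in slow/slow ESCs, at 0.701, 0.552 and 0.526 CPM against 0.304, 0.344 and 0.252 CPM (log2 1.00, FDR 0.0012). Cntnap2 was lower, at 1.33, 1.41 and 1.64 CPM against 2.45, 2.98 and 2.43 CPM (log2 -0.84, FDR 0.0027). In NPCs 4 members were called, where 56.7 percent of all tested genes were. Cntnap2 was now higher in slow/slow, at 5.06, 5.2 and 6.41 CPM against 2.97, 2.85 and 3.15 CPM (log2 0.89, FDR 0.00048). Cntnap1 and Nlgn3 were higher too (log2 0.84 and 0.89), and Nlgn2 was lower at 35.4, 36.9 and 38.1 CPM against 67.4, 71.7 and 64.3 CPM (log2 -0.88, FDR 2.2e-05). Neuronal markers summed to 107 to 125 CPM in slow/slow and 29.1 to 29.6 CPM in WT NPCs, progenitor markers to 143 to 184 and 47.5 to 49.9 CPM, and in ESCs neuronal markers to 122 to 151 and 45.4 to 57.2 CPM. Their part in these differences was not tested.

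In PSA-NCAM+ cells 3 members were called, where 56.7 percent of all tested genes were. Cntnap2 was at 8.7, 8.69 and 9.62 CPM in slow/slow against 1.4, 3.15 and 2.79 CPM in WT, 3.72-fold higher (log2 1.90, FDR 8.1e-08). The whole-gene Cntnap2 count thus changed sign along the differentiation. It was lower in slow/slow ESCs, higher at the NPC and PSA-NCAM+ stages and lower again in neurons. The 2 junctions shared with the short transcripts averaged 1.72 RPM in slow/slow and 0.917 in WT NPCs, and 2.4 and 0.743 in PSA-NCAM+ cells. The 21 junctions before these were not higher in slow/slow, at 0.00413 against 0.0128 RPM in NPCs and 0.00813 against 0.0107 in PSA-NCAM+ cells. Those means rest on 6 to 19 reads per group. Cntnap1 (log2 0.66, FDR 0.0033) and Nlgn3 (log2 0.48, FDR 0.036) were also higher in slow/slow PSA-NCAM+ cells, and the call of Nlgn3 was lost without WT library 2 or 3 or slow/slow library 2 or 3 (FDR 0.061 to 0.15). Without both libraries numbered 1, 7 members were called, in a fit whose share of all tested genes called is not given here. It added Nrxn2 (log2 0.35, FDR 0.015), Nrxn3 (1.62, FDR 0.028) and Cntnap4 (1.25, FDR 0.0099) as higher and Nlgn2 as lower (-0.23, FDR 0.0077). Nrxn3 and Cntnap4 passed the filter through neurons, so their calls are given as a description. In the libraries left, Nrxn3 had 2 and 5 counts in WT against 10 and 26 in slow/slow. Cntnap4 had 8 and 14 against 29 and 57. Markers of mesenchyme summed to 189 to 517 CPM in WT and 144 to 661 CPM in slow/slow PSA-NCAM+ libraries, and neuronal markers to 22.9 to 38.4 and 71.7 to 229 CPM. The part of these markers was not tested either.

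Within a genotype, the early steps gave the following calls. Nrxn3, Nlgn1, Cntnap4 and Lrrtm2 had few reads before neurons, which limits such calls for them. From ESCs to NPCs 3 members were called in WT (65.6 percent of all tested genes) and 4 in slow/slow (62.3 percent). Nlgn3 rose by 1.68 in WT and 2.67 in slow/slow on the log2 scale, and Cntnap1 by 2.21 and 2.05. Nlgn2 was called in both genotypes with opposite signs, at 0.32 in WT (FDR 0.044) and -0.55 in slow/slow (FDR 0.0018), where the WT call was lost whichever of the 6 libraries was left out (FDR 0.053 to 0.16). In slow/slow cells Cntnap2 was called at 1.93. From NPCs to PSA-NCAM+ cells Nlgn1 was the only member called in WT (1.71, FDR 0.024, against 41.3 percent of all tested genes), on 8 counts in NPCs and 29 in PSA-NCAM+ cells. In slow/slow cells 4 were called (42.3 percent of all tested genes): Nlgn1 at 2.10, Nlgn2 at 0.82, Cntnap2 at 0.70 and Cntnap4 at 2.54. In slow/slow cells Nlgn1 had 3 counts in NPCs and 21 in PSA-NCAM+ cells, and its libraries overlapped. Its log2 value ranged between 1.26 and 5.51 when 1 library was left out. Nlgn1 and Cntnap4 passed the filter through neurons, so these calls are given as a description. The call of Nlgn1 was lost in 3 of 6 fits that left out 1 library in WT (FDR 0.057 to 0.095) and in 3 of 6 in slow/slow (FDR 0.095 to 0.21). Whether the slow/slow minus WT difference in neurons departed from that in NPCs was tested as an interaction, and 5 members were called, where 55.1 percent of all tested genes were.

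Many genes that work with the members in synapses and on axons were lower in slow/slow neurons. Of all tested genes, 28.4 percent were lower and 23.4 percent higher. The lists also hold long genes such as Ptprd (2270.7 kb), and 53.6 percent of all tested genes above 500 kb were lower. The part of gene span in these counts was not tested. Of 40 tested genes for trans-synaptic partners and other synaptic adhesion proteins, 26 were lower, 2 higher and 12 not called, with a median log2 difference of -0.70 against -0.06 over all tested genes. Gpc4, a glypican that organises excitatory synapses, was at -2.30 and Mdga2, which holds neuroligins away from neurexins, at -2.20, while Slitrk6 (0.78) and Flrt2 (0.75) were the 2 that rose. Of 22 cytoplasmic scaffolds, 16 were lower, 0 higher by edgeR and 6 not called, with a median of -0.70. Lin7b (-2.26) and Apba1 (-1.41), both of the presynaptic scaffold that binds neurexin tails, fell most. Of 7 relatives of the members, 3 were lower and 4 not called. Cntnap3 was at -2.24.

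Among 7 axonal partners of contactin-associated proteins, 5 were lower, 1 was higher and 1 was not called. Cntn1, the contactin that pairs with CNTNAP1, was at -1.66 and Kcna1, a potassium channel subunit clustered by CNTNAP2, at -1.76. The exception was Cntn2, the contactin that pairs with CNTNAP2, at 165, 194 and 186 CPM in slow/slow against 35.5, 41.1 and 42.2 CPM in WT neurons (log2 2.20, edgeR FDR 6.9e-07). In slow/slow neurons Cntn2 therefore rose where Cntnap2 fell.

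The genes whose mean log2 CPM over the 8 groups was most like that of each member had Pearson correlations of 0.986 to 0.999, given as a description since the groups share their stages. For Nrxn2 these were Clasp2 (0.996) and Syn3 (0.991), for Nrxn3 Rab9b (0.998) and Gpr22 (0.996), and for Cntnap2 Galnt13 (0.994) and Fbxl16 (0.992). The neuroligins were most like Ankfn1 (0.995) and Tshz2 (0.988) for Nlgn1, Adcy5 (0.995) and 1600014C10Rik (0.994) for Nlgn2, and L1cam (0.994) and Hoxb7 (0.994) for Nlgn3. Cntnap1 was most like Zfp287 (0.995) and Gm1673 (0.986), Cntnap4 most like Accn4 (0.999) and Rasa3 (0.997), and Lrrtm2 most like AC138311.3 (0.996) and Haghl (0.995). None of these was itself a member.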

How the data were processed

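Poly(A) RNA libraries prepared with a strand-specific kit were mapped to mm9 and processed by the authors with vast-tools version 1. The authors deposited raw counts per gene and library, and whether counting used the strand is not given in the sources used here. Per the file headers and the values, the table also holds the authors' mean RPKM of each group, used only to check the order of levels, and the deposited log2 fold changes and p-values (FDR) of the authors' own comparisons, which were not used. The authors deposited the percent spliced in (PSI) of each exon and library with corrected inclusion and exclusion reads, and, for introns, the reads that join the neighbouring exons.

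The members and lists were chosen with earlier results of these data known. Groups were taken from the sample labels. Counts were tested with edgeR 4.0.16 in R 4.3.3: genes kept by filterByExpr (16627 of 21553 with counts), TMM scaling, the quasi-likelihood test on a model of 8 groups with 16 residual degrees of freedom, and Benjamini-Hochberg adjustment over all tested genes at 0.05. All 9 members and the genes of the fixed lists were eligible to be named: examples are the 2 with the largest rise and the 2 with the largest fall among called genes, and for each member the 2 genes with the highest correlation over group means. Exons were called from beta posteriors of the reads, pooled over replicates, at a PSI difference above 10 points and a posterior above 0.95, among events that passed the vast-tools coverage and balance scores in all 6 libraries, and limma 3.58.1 was an alternative. The junction analysis was chosen after the data were seen. Gene positions came from GENCODE M21 (GRCm38), to which 20451 gene identifiers (94.9 percent) were matched. Exons were placed there by matching the lengths of the exon and its flanking introns, and no coordinates were converted. Promoter windows came from RefSeq, which held entries for 4 of the 9 members. The scripts were tested on simulated data. The same replicate number was taken as a shared experiment only in PSA-NCAM+ cells, where each of the 3 same-numbered pairs correlated above 0.1. Alternatives were other scalings, DESeq2 1.42.0, no filter, a fit per stage, a replicate block, exon thresholds and leaving out each library. The results of 1 relative of the members and the sequence of the SS4 exon are not reported here.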

Additional observations from a re-analysis of the deposited data

Results flagged for a closer look

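For 5 members the difference between slow/slow and WT cells was itself different in neurons than in NPCs, by the interaction term of the edgeR model, which was called for 55.1 percent of all tested genes. The members' count is near that share. The whole-gene Cntnap2 count was higher in slow/slow NPCs and lower in slow/slow neurons. Its log2 difference moved by -2.04 between the stages (FDR 1.9e-06). For Nrxn2, near equal in NPCs, it moved by -1.45 (FDR 0.0021). Nlgn3 and Cntnap1 were higher in slow/slow NPCs and did not pass the test in neurons, with movements of -1.06 (FDR 0.002) and -0.87 (FDR 0.0049). Nlgn2 was lower in slow/slow cells at both stages and less so in neurons, a movement of 0.55 (FDR 0.021). Upper-quartile scaling moved the median of all genes in this comparison by 0.18.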

How the results depend on the processing

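Nrxn2 and Cntnap2 were called lower in slow/slow neurons under every setting run, with log2 differences of -1.48 to -1.30 and -1.18 to -1.0. Upper-quartile scaling moved the median of all genes by 0.14 in neurons and raised the share of called genes that were higher from 45.2 to 59.2 percent. The cause of the changes given here was not tested. The count of members called in PSA-NCAM+ cells (3) was 5 with DESeq2, 1 with a fit per stage and 7 without both libraries numbered 1, and 2 to 7 when 1 library was left out. In neurons (4) it was 2 with upper-quartile scaling, 7 with a fit per stage, which added Nrxn3, Cntnap4 and Lrrtm2, and 2 to 3 with 1 library left out. For WT PSA-NCAM+ cells against NPCs (1) it was 2 without both libraries numbered 1 and 0 to 4 with 1 left out. The share of all tested genes called under these settings is not given here, so these counts are not a result about the members. The count of exons in neurons (2) was 1 with stricter coverage, 1 above 15 points, 1 with limma and 1 to 2 with 1 library left out. In NPCs it was 1 with limma and the replicate block (0 as reported) and 0 to 1 with 1 left out, and in PSA-NCAM+ cells 0 to 1. The log2 ratio of the shared Nrxn2 junctions (-1.01) was -1.06 with the library sizes of the gene table.

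Signs changed only for differences that were not called. With a fit per stage, Nlgn2 was at 0 in ESCs (-0.01 as reported), Nrxn2 at -0.02 in NPCs (0.01) and Cntnap1 at 0.04 in neurons (-0.03). In NPCs Nrxn2 was also at -0.02 with DESeq2, -0.03 with DESeq2 size factors and -0.04 with upper-quartile scaling, under which Cntnap1 was at 0.11 in neurons and Nrxn2 at 0.04 for WT NPCs against ESCs (-0.04). With the replicate block Nrxn3 was at 0.01 in ESCs (0), and the block changed no call of a gene, leaving 4 members in neurons and 3 in PSA-NCAM+ cells. Without both PSA-NCAM+ libraries numbered 1, Lrrtm2 was at 0.91 between genotypes (-1.04). For that stage against NPCs, Nlgn3 was then at -0.02 and Lrrtm2 at -0.76 in WT (0.30 and 1.40), and Nrxn2 at 0.07 and Nlgn3 at 0.01 in slow/slow (-0.25 and -0.11).

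Leaving out 1 library gave these ranges where a sign changed. Between genotypes they were, in ESCs, -0.05 to 0.06 for Nlgn2, -0.2 to 0.08 for Nlgn3 and -0.45 to 0.47 for Lrrtm2. They were -0.05 to 0.1 for Nrxn2 in NPCs and -0.08 to 0.03 for Cntnap1 in neurons. In PSA-NCAM+ cells they were -0.02 to 0.65 for Nrxn2, -0.3 to 0.13 for Nlgn2 and -1.48 to 1.11 for Lrrtm2. For NPCs against ESCs they were -0.14 to 0.05 for Nrxn2, 0 to 3.8 for Nrxn3 and -0.2 to 0.44 for Lrrtm2 in WT, and -3.7 to 0.54 for Nlgn1 in slow/slow. For PSA-NCAM+ cells against NPCs they were -0.12 to 0.02 for Nlgn2, -0.01 to 0.52 for Nlgn3 and -0.75 to 1.88 for Lrrtm2 in WT, and -0.58 to 0.09 for Nrxn2 and -0.21 to 0.04 for Nlgn3 in slow/slow. The interaction of Nlgn1 ranged from -0.52 to 3.73.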

Other observations

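Before neurons, the relatives and partners of the members gave the following counts, beside 40.4 percent of all tested genes called in either direction in ESCs and 56.7 percent in both NPCs and PSA-NCAM+ cells. In NPCs 5 of 7 tested relatives were higher in slow/slow cells and 0 lower by edgeR, with a median log2 difference of 1.46, and in PSA-NCAM+ cells 4 of 7 were higher, with a median of 1.90. In ESCs 1 of 7 was higher. Of the 40 synaptic adhesion genes, 19 were higher and 9 lower in slow/slow NPCs (median 0.18), and 19 higher and 9 lower in PSA-NCAM+ cells (median 0.38), while 8 were higher and 8 lower in ESCs. Of the 22 scaffolds, 7 were higher and 4 lower in NPCs, 10 higher and 4 lower in PSA-NCAM+ cells, and 2 higher and 7 lower in ESCs. Of the 7 axonal partners, 3 were higher and 2 lower in NPCs, 5 higher and 1 lower in PSA-NCAM+ cells, and 3 higher and 3 lower in ESCs. Of the 3 RNA-binding regulators of neurexin exons, 1 was higher in ESCs, 2 in NPCs and 2 in PSA-NCAM+ cells. Genes above 500 kb had a median log2 difference of -0.39, 0.29 and 0.39 at the ESC, NPC and PSA-NCAM+ stages.

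Some exons of the members had values but failed the coverage or balance scores and were not tested in neurons. The 60-nucleotide exon at splice site A of Nlgn1 was at a mean of 27.4 percent in WT and 15.2 percent in slow/slow neurons, from 7 to 45 reads. A 62-nucleotide exon of Nrxn2 was at 32.7 and 51.6 percent, and a 706-nucleotide exon of Nrxn3 at 31.0 and 8.83 percent. A 128-nucleotide exon of Cntnap1 was at 77.6 percent in WT and 100 percent in slow/slow neurons, from 16 to 38 reads.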
